A study of Danio rerio with 8 samples.

Results

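Transcription factor genes that pattern the mesoderm, the dorsal organizer and the endoderm of the zebrafish gastrula were followed in primordial germ cells (PGCs) and in somatic cells, 6 genes in all. They were chosen by identifier: tbxta (ENSDARG00000101576), tbx16 (ENSDARG00000007329), noto (ENSDARG00000021201), gsc (ENSDARG00000059073), sox17 (ENSDARG00000101717) and sox32 (ENSDARG00000100591). They make up 6 of the 34289 genes in the deposited tables, and all 6 passed the filter on low counts that left 19885 genes for testing. PGCs, which later give rise to eggs and sperm, and somatic cells had been separated by fluorescence-activated cell sorting of embryos of the transgenic line kop-EGFP-F-nos3'UTR, which per the study's methods also carries cry-DsRed, and low-input total RNA libraries were sequenced. The labels name no mutation of the line and no treatment of the embryos, and PGCs and soma came from the same line. The study's methods describe N-phenylthiourea against pigment only for embryos older than 24 hours. Its membrane-targeted EGFP is made in the PGCs, where the 3'UTR of nanos3 preserves the message. The embryos were sampled at 2 stages, the gastrula at 7 hours post fertilisation (hpf) and the pharyngula at 24 hpf, so that the 8 libraries fall into 4 groups of 2.

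During gastrulation Nodal, Fgf and Wnt signals at the embryo's margin turn on T-box genes in the prospective mesoderm, homeobox genes in the dorsal organizer and SoxF genes in the endoderm. Most of this expression is transient, and it belongs to the somatic germ layers. Zebrafish PGCs are set aside by inherited germ plasm rather than by these signals, and they migrate among mesodermal and endodermal cells during this period. The genes are described in the order mesoderm, organizer and endoderm.

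Values are given as CPM, read counts scaled to a common library size with TMM, where libraries are compared. They are given as TPM, transcript abundance per unit of length, where genes are compared. A gene was called when edgeR's quasi-likelihood test over all 19885 genes gave a Benjamini-Hochberg adjusted p under 0.05 and the log2 fold change was at least 1.5 in size. The libraries held 6997561 to 21073240 counts, in which the floor of 3 counts corresponded to 0.158 to 0.309 CPM. The study calls its replicates biologically independent. The 5 germ cell markers tested (nanos3, dnd1, tdrd7a, ddx4 and dazl, which are the study's own and not independent of these libraries) summed to 4304 and 6058 CPM in the PGC libraries at 7 hpf against 77.5 and 30.6 CPM in soma. At 24 hpf they summed to 611 and 472 CPM in PGCs against 3.11 and 8.92 CPM in soma. The 8 somatic markers with a matched identifier summed to 1339 and 755 CPM in PGCs and 278 and 470 CPM in soma at 7 hpf, and to 493 and 852 CPM in PGCs and 1117 and 750 CPM in soma at 24 hpf. The keratin gene krt5 made up most of the first pair, with 1253 and 599 CPM in PGCs at 7 hpf, while the neural gene sox2 (6.24 and 6.49 CPM against 97.7 and 42.0 CPM in soma) and the epidermal gene tp63 were called lower there. The muscle gene myog had 0 counts in all 4 libraries at 7 hpf. At 24 hpf the muscle gene myod1 stood at 51.0 and 91.7 CPM in PGCs against 42.5 and 47.8 CPM in soma, and the vessel gene kdrl at 33.8 and 35.3 CPM against 54.1 and 43.3 CPM. Of the 8 markers 3 had both PGC libraries below both soma libraries at 24 hpf (17.9% of all genes did), 1 had both above (19.2%) and 4 overlapped. At 7 hpf 4 markers lay below (24.9% of all genes), 2 lay above (23.8%) and 2 overlapped. The study estimated its sorted PGCs to be nearly pure. The part that RNA of somatic cells had in the levels of the 6 genes in PGC libraries was not tested. In such bulk libraries a smaller share of cells that express a gene and less of its RNA per cell cannot be told apart.

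All 6 genes were present in PGC and soma libraries at 7 hpf, and all 6 were lower at 24 hpf in both. None was called between PGCs and soma at either stage, where 5.44% of all genes were called at 7 hpf and 0.0302% at 24 hpf. The stage differences ranged from about 8-fold for tbxta to a near-complete loss of sox32, whose counts fell from 574 to 1 in PGCs and from 772 to 1 in soma.

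tbxta encodes the T-box factor Brachyury (no tail), needed for the notochord and the posterior mesoderm, and it is known to stay on in the notochord and tailbud after gastrulation. It measured 283 and 207 CPM in the PGC libraries at 7 hpf and 468 and 239 CPM in the soma libraries. At 24 hpf it measured 32.6 and 28.2 CPM in PGCs and 35.8 and 33.1 CPM in soma. The 2 cell types overlapped at 7 hpf, whereas at 24 hpf both PGC libraries lay just below both soma libraries. tbxta fell by 3.01 on the log2 scale in PGCs (SE 0.36, adjusted p = 0.000565) and fell by 3.36 in soma (SE 0.36, adjusted p = 0.000345), 8.05-fold and 10.3-fold.

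tbx16 encodes a second T-box factor (spadetail), which is needed for mesodermal progenitors to leave the margin and form somites. It had the highest CPM of the 6 genes in each library at 7 hpf, with 529 and 498 CPM in PGCs and 532 and 288 CPM in soma. At 24 hpf it measured 7.87 and 2.54 CPM in PGCs and 11.0 and 4.39 CPM in soma. The cell types overlapped at both stages, and in each cell type replicate 1 at 24 hpf was well above replicate 2. Between the stages tbx16 fell by 6.62 on the log2 scale in PGCs (SE 0.69, adjusted p = 0.000336), a 98.0-fold difference. In soma it fell by 5.73 (SE 0.67, adjusted p = 0.000451), a 53.2-fold difference.

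noto (floating head) encodes a homeobox factor of the organizer that keeps axial cells in the notochord fate. It measured 17.9 and 6.49 CPM in PGCs and 22.1 and 14.6 CPM in soma at 7 hpf. At 24 hpf it measured 0.58 and 0 CPM in PGCs (11 and 0 counts) and 0.66 and 0.75 CPM in soma (10 and 11 counts). The cell types overlapped at 7 hpf, and at 24 hpf, on these few counts, both PGC libraries lay below both soma libraries. noto fell by 5.31 on the log2 scale in PGCs (SE 1.09, adjusted p = 0.00656) and fell by 4.68 in soma (SE 1.04, adjusted p = 0.0072).

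gsc (goosecoid) encodes a homeobox repressor of the organizer and prechordal plate. It measured 20.7 and 4.02 CPM in PGCs and 20.3 and 23.9 CPM in soma at 7 hpf. One PGC library was thus level with soma and the other was well below it, so the groups overlapped. At 24 hpf gsc had 1 and 9 counts in PGCs and 0 and 2 counts in soma, and the groups overlapped. In PGCs it fell by 5.37 on the log2 scale (SE 1.14, adjusted p = 0.0076). In soma the 2 counts at 24 hpf stood against 528 at 7 hpf, a ratio of 325 (95% exact conditional interval for counting error only, 89.6 to 2692), and the gene was called lower (adjusted p = 0.00207).

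sox32 (casanova) encodes the SoxF-related factor that commits zebrafish cells to endoderm. It measured 35.5 and 8.76 CPM in PGCs and 38.2 and 24.3 CPM in soma at 7 hpf. At 24 hpf each cell type had 1 count in one library and 0 in the other. The 7 hpf groups overlapped, and at 24 hpf both cell types were at or under the floor, so no fold is given between them. The single count in PGCs at 24 hpf stood against 574 at 7 hpf, a pooled ratio of 866 (interval for counting error only, 155 to 34264). The single count in soma stood against 772, a pooled ratio of 951 (interval 170 to 37606). These intervals leave out the spread between replicates. In the edgeR fit sox32 was called lower in PGCs (log2 change of -9.23, adjusted p = 0.000664) and in soma (log2 change of -9.52, adjusted p = 0.000523).

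sox17 encodes the SoxF factor that acts downstream of sox32 in the endoderm, and it is also known from forming vessels. It measured 24.6 and 2.58 CPM in PGCs and 22.0 and 20.1 CPM in soma at 7 hpf. The first PGC library held the highest level and the second held the lowest, with both soma libraries between them. At 24 hpf it had 5 and 0 counts in PGCs and 7 and 0 counts in soma, with the counts in replicate 1 of each. sox17 fell by 6.54 on the log2 scale in PGCs (SE 1.51, adjusted p = 0.0111) and fell by 6.44 in soma (SE 1.48, adjusted p = 0.00839). The call in PGCs was lost without replicate 1 of PGCs at 7 hpf (log2 change of -4.12, adjusted p = 0.0672) and without replicate 2 of PGCs at 24 hpf (log2 change of -5.64, adjusted p = 0.0654). In the zebrafish assembly GRCz12tu sox17 and sox32 lie on the same chromosome with 1 annotated gene between them.

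**Figure D1:**
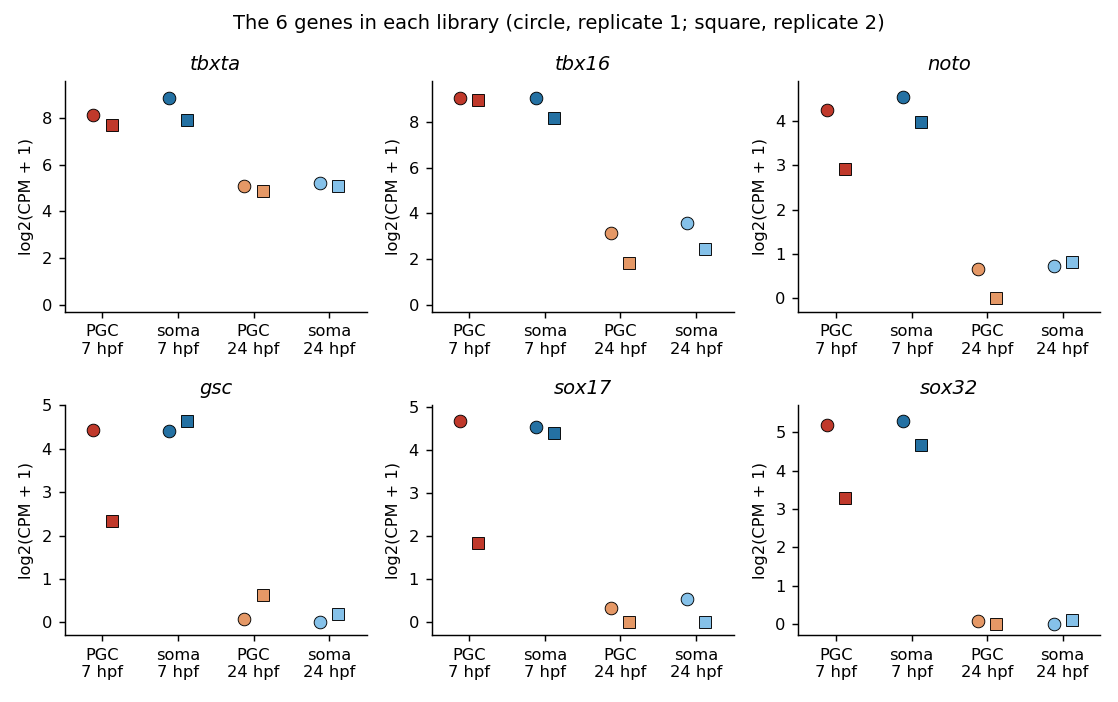
Level of each gene in each of the 8 libraries as log2(CPM + 1), with CPM scaled by TMM; circles are replicate 1 and squares replicate 2 of each group, and each panel has its own axis. Every 24 hpf library lies below every 7 hpf library for all 6 genes, and gsc, sox17 and sox32 are lower in the second PGC library at 7 hpf (4.02, 2.58 and 8.76 CPM) than in the other 3 libraries of that stage.

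Per transcript length the order of the genes was nearly the same in every library at 7 hpf. In TPM tbxta was first in all 4 libraries (116, 94.6, 230.0 and 69.0, in the order PGC then soma) and tbx16 second (64.5, 68.1, 75.9 and 26.0). noto (5.46 to 20.3) and gsc (2.46 to 13.4) came next, changing places in the second soma library. sox32 (2.03 to 9.30) and sox17 (0.66 to 5.91) followed in that order. Of the neighbours in this order, noto and gsc, and sox32 and sox17, overlapped in TPM between the libraries of each cell type, although within each of the 4 libraries sox32 lay above sox17. tbxta and tbx16 overlapped in soma and not in PGCs, gsc and sox32 overlapped in PGCs and not in soma, and tbx16 lay above noto in both. Among all genes of a library tbxta stood above 97.8% to 98.8% at 7 hpf, and sox17 above 61.2% to 82.5%.

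For the T-box pair the ratio of the genes within each library is given as a description. The TPM of tbxta over that of tbx16 was 1.80 and 1.39 in PGCs and 3.03 and 2.66 in soma, so the libraries of the cell types did not overlap in the ratio although they overlapped for both genes. With 2 libraries against 2 no test of this ratio was run, and the ratio was taken for no other pair of genes. At 24 hpf the ratio was 16.5 and 38.5 in PGCs and 11.0 and 31.8 in soma, and the cell types overlapped.

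At 24 hpf tbxta made up nearly all of what was left. Its share of the summed TPM of the 6 genes was 53.0% and 54.6% in PGCs and 64.8% and 57.3% in soma at 7 hpf. At 24 hpf its share was 91.2% and 95.2% in PGCs and 88.3% and 93.5% in soma. The groups of the 2 stages did not overlap in this share. It was still above 90.2% to 92.6% of all genes by TPM, whereas tbx16 stood at 0.19 to 1.34 TPM and the other 4 genes at 0 to 0.5 TPM. Of the 24 values of the 6 genes at 24 hpf, 10 were at or under 3 counts, against 0 of 24 at 7 hpf.

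**Figure D2:**
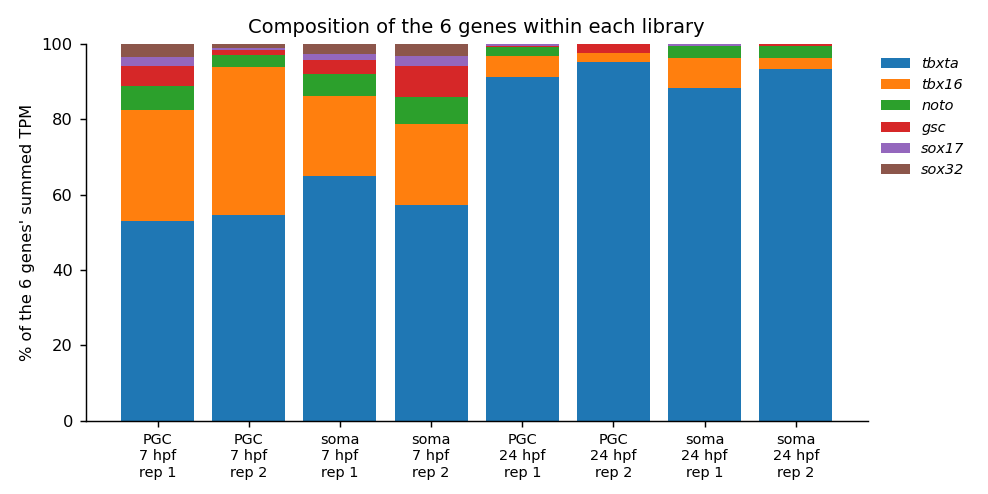
Share of each gene in the summed TPM of the 6 genes within each library, in percent; each bar is 1 library. tbxta takes 53.0% to 64.8% at 7 hpf and 88.3% to 95.2% at 24 hpf, and the share of tbx16 is 21.4% to 39.3% at 7 hpf and 2.47% to 8.03% at 24 hpf.

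The comparison of PGCs with soma asked which of these genes differed between the cell types at each stage. At 7 hpf 0 of the 6 genes was called by edgeR, where 5.44% of all genes tested were called, 3.61% higher and 1.83% lower in PGCs. None had an unadjusted p under 0.05, where 26.7% of all genes did, and DESeq2 called 0 as well. The log2 differences, PGC against soma, were -0.53 for tbxta (SE 0.33, 95% interval -1.28 to 0.22), 0.32 for tbx16 (SE 0.54, interval -0.89 to 1.54) and -0.59 for noto (SE 0.86, interval -2.54 to 1.36). They were -0.83 for gsc (SE 0.89, interval -2.85 to 1.19), -0.63 for sox17 (SE 1.09, interval -3.10 to 1.84) and -0.50 for sox32 (SE 0.67, interval -2.01 to 1.02). The adjusted p ran from 0.344 to 0.793. The groups overlapped for all 6 genes, and the intervals of the 5 genes other than tbxta reach past a log2 difference of 1.5, so that a difference of that size is not excluded for them. For comparison, the germ plasm gene dnd1 was higher in PGCs by 9.84 on the log2 scale (SE 0.81).

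At 24 hpf 0 of the 6 genes was called by edgeR, where 0.0302% of all genes were called, all of them higher in PGCs. None had an unadjusted p under 0.05, where 3.02% of all genes did, and DESeq2 called 0. tbxta differed by -0.18 on the log2 scale (SE 0.33, interval -0.94 to 0.58), tbx16 by -0.56 (SE 0.57, interval -1.84 to 0.73) and noto by -1.22 (SE 1.07, interval -3.64 to 1.21). For gsc 10 counts in PGCs stood against 2 in soma, a ratio of 4.19 (interval for counting error 0.892 to 39.3). sox17 differed by -0.73 (SE 1.69). Only tbxta and noto had both PGC libraries below both soma libraries, 2 of 6 genes where 17.9% of all genes did so. At 7 hpf the median difference over the 6 genes was -0.56 against 0.00 over all genes. No median is given at 24 hpf, where the difference of sox32 rests on 1 count in each cell type.

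Between 7 and 24 hpf all 6 genes were called lower in PGCs, where 6.94% of all genes were called lower and 19.5% higher. All 6 were also called lower in soma, where 9.89% of all genes were called lower and 23.2% higher. noto, gsc, sox17 and sox32 held at most 11 counts in a library at 24 hpf. They passed the count filter only through their 7 hpf libraries. For them the only call open was lower, and the shares over all genes carry no such limit. Both 24 hpf libraries lay below both 7 hpf libraries for each gene in each cell type, which held for 29.7% of all genes in PGCs and 29.5% in soma. Over the 6 genes the log2 changes had a median of -5.95 in PGCs and of -6.09 in soma, while over all genes the medians were 0.36 and 0.46. On the count scale tbxta had the smallest fitted change of the 6 in both cell types and sox32 the largest, but this order depended on the scale. On log2(TPM + 1), where the pseudocount compresses genes of low TPM, sox17 had the smallest change (-1.69 in PGCs and -2.39 in soma) and tbx16 the largest (-5.55 and -4.66), with sox32 at -2.32 and -2.80 and tbxta at -3.34 and -3.13. The intervals of tbxta (-3.82 to -2.20 in PGCs and -4.18 to -2.54 in soma) did not reach those of tbx16 (-8.18 to -5.05 and -7.24 to -4.23).

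Whether the stage change differed between the cell types was tested by the interaction term. It was called for 0 of the 6 genes, where 0.00503% of all genes were called, and none of the 6 had an unadjusted p under 0.05, where 15.1% of all genes did. DESeq2 called 0 as well. The largest value was that of gsc, 2.80 on the log2 scale (SE 1.77, interval -1.20 to 6.81, adjusted p = 0.489), on 12 counts in all at 24 hpf. For tbxta it was 0.35 (SE 0.47, interval -0.71 to 1.41) and for tbx16 -0.88 (SE 0.78, interval -2.65 to 0.89).

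**Figure D3:**
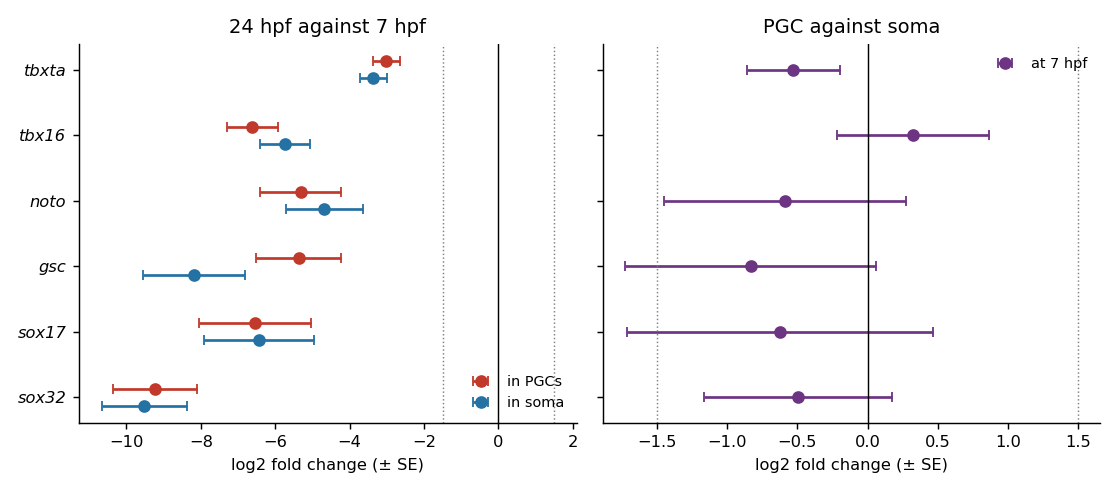
Log2 fold changes from the edgeR fit for each gene with standard errors as bars, 24 hpf against 7 hpf in PGCs and in soma on the left and PGC against soma at 7 hpf on the right; dotted lines mark the 1.5 threshold. All 12 stage changes lie beyond the threshold, from -3.01 for tbxta in PGCs to -9.52 for sox32 in soma, and the 6 cell type differences lie between -0.83 and 0.32.

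The 2 PGC libraries at 7 hpf agreed for tbxta and tbx16 and disagreed for noto, gsc, sox32 and sox17. The log2 CPM of replicate 1 less that of replicate 2 was 0.09 for tbx16 and 0.45 for tbxta, and it was 1.45 for noto, 2.32 for gsc, 2.00 for sox32 and 3.19 for sox17. Over 13113 well-covered genes the median of this difference was 0.00 and its SD was 1.02, and 94.6% of those genes lay below noto, 97.1% below sox32, 98.0% below gsc and 99.2% below sox17. In the soma libraries at 7 hpf the same difference lay between -0.24 for gsc and 0.97 for tbxta. The 4 genes that differed most between the PGC libraries thus differed by at most 0.65 between the soma libraries. Of the 33 other network genes described next, 27 were higher in replicate 1 of the PGCs at 7 hpf, with a median difference of 0.92. Mesoderm genes were among them, such as tbx6 (25.5 and 7.11 CPM) and msgn1 (51.6 and 12.8 CPM). Of the endoderm genes, sebox differed little (11.5 and 9.89 CPM) and gata6 was lower in replicate 1 (15.2 and 23.7 CPM). A lean to replicate 1 over the 33 genes also appeared in soma at 7 hpf (24 of 33, median 0.40, where the median of all genes was 0.11). It appeared in PGCs at 24 hpf as well (21 of 33, median 0.57). In soma at 24 hpf 18 of 33 were higher in replicate 1, with a median of 0.07, where the median of all genes was 0.01. The somatic markers did not lean 1 way. krt5 was higher in replicate 1 (1253 against 599 CPM), whereas sox19b (74.6 against 137 CPM) and tp63 (4.21 against 11.7 CPM) were higher in replicate 2. The germ cell markers summed higher in replicate 2 (6058 against 4304 CPM), although dazl was higher in replicate 1 (95.9 against 39.6 CPM). Their part in the disagreement was not tested.

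**Figure D4:**
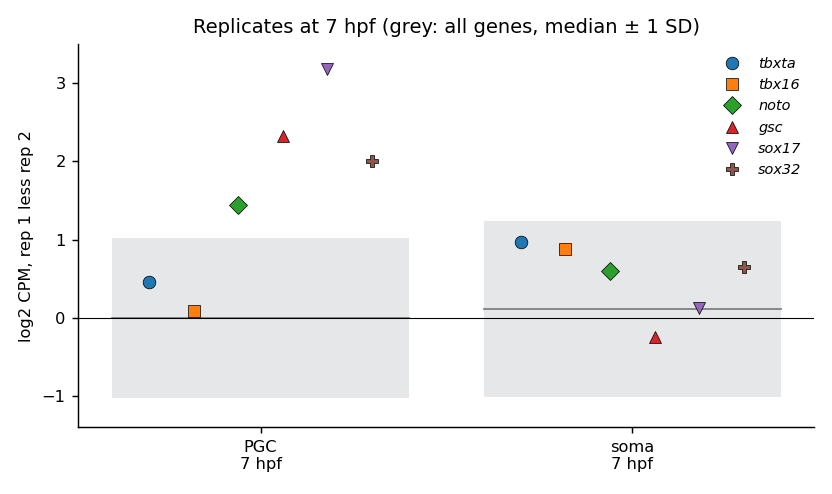
Difference between replicate 1 and replicate 2 at 7 hpf in log2 CPM for each gene, in PGCs and in soma; grey boxes span the median of all 13113 genes plus and minus 1 SD (1.02 in PGCs and 1.13 in soma). In PGCs noto, gsc, sox17 and sox32 lie above the box at 1.45 to 3.19, and in soma all 6 genes lie inside it.

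The patterns across the 8 libraries were compared with those of 13107 other genes by the root mean square difference of centred log2 CPM, as a description. The gene nearest to sox32 was ndr2 (ENSDARG00000101279), which encodes the Nodal ligand Cyclops, at 0.36, where the median gene lay at 3.72. ndr2 measured 26.9 and 8.45 CPM in PGCs and 26.0 and 21.5 CPM in soma at 7 hpf, low in the same PGC library, and 3 counts in all at 24 hpf. The nearest to gsc was chrd (ENSDARG00000006110), the organizer's secreted BMP antagonist Chordin, at 0.74 (median gene 3.14), with 413 and 181 CPM in PGCs and 577 and 618 CPM in soma at 7 hpf. The nearest to sox17 was pnhd (ENSDARG00000039070) at 0.53 (median gene 3.16), and the nearest to noto was the homeobox gene eve1 (ENSDARG00000056012) at 0.49 (median gene 2.67). tbxta lay nearest to the gene that the reference table names BMP2 (ENSDARG00000041430), at 0.15 (median gene 1.77), and tbx16 nearest to nabp1b (ENSDARG00000043685) at 0.61 (median gene 3.31). Among themselves the 6 genes lay 0.95 (tbx16 and sox32) to 2.04 (tbxta and sox32) apart. All of these genes share the same 8 libraries and lower levels at 24 hpf, where the values of sox32, ndr2 and nabp1b rest on 0 to 3 counts a library and on the prior count.

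RSEM gives each gene an effective length, the number of positions from which a fragment could start, weighted by the abundance of its isoforms. It was read after removing each library's common shift. For tbx16, noto, sox17 and sox32 it was the same in all 8 libraries. For tbxta it was 1402 and 1397 bases in PGCs and 1383 and 1481 bases in soma at 7 hpf, and 1175 and 1320 bases in PGCs and 1386 and 1098 bases in soma at 24 hpf. The PGC libraries of the 2 stages did not overlap and the soma libraries did, and no test was run. For gsc it was 1038 bases in all 4 libraries at 7 hpf, and its 12 counts at 24 hpf were too few to read. None of the 48 counts of the 6 genes was fractional, so the values show no reads divided between them and other genes.

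Around the 6 genes, 33 identifiers of 32 further network genes were tested, all of which passed the filter. At 7 hpf 1 of the 33 was called higher in PGCs and 0 lower by edgeR, where 3.61% and 1.83% of all genes were called. Of the 33, 11 had an unadjusted p under 0.05, a share near the 26.7% of all genes, and DESeq2 called 2 higher and 2 lower. The number called lower was 6 with no count filter. The shares of 3.61% and 1.83% belong to the filtered edgeR fit, and those under DESeq2 or without the filter are not given here. In 16 of the 33 both PGC libraries lay below both soma libraries (48.5%, against 24.9% of all genes) and in 5 both lay above (15.2%, against 23.8%), and the median difference was -0.88. The gene called was mixl1, a Mix-type homeobox gene that acts upstream of sox32 in the endoderm. It measured 143 and 80.6 CPM in PGCs and 19.2 and 3.35 CPM in soma, higher by 3.30 on the log2 scale (SE 0.76, adjusted p = 0.0396). This call was lost when either PGC library at 7 hpf, or either PGC library at 24 hpf, was left out.

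The other endoderm and Nodal genes were not called, and their values leaned both ways. Among the 6 endoderm genes both PGC libraries lay above both soma libraries for 2 (mixl1 and sebox), where 23.8% of all genes did so. Both lay below for 2 (gata5 and foxa1), where 24.9% of all genes did so. foxa1 had 0 counts in PGCs and 7 and 2 in soma. Among the 7 Nodal pathway genes both PGC libraries lay above for 2 (ndr1 and gdf3) and below for 3 (foxh1, lft1 and lft2). Of these 7 log2 differences 5 were negative. The place of ndr1 rested on 39 and 6 counts in PGCs and 1 and 0 in soma. The Mix-type gene sebox measured 11.5 and 9.89 CPM in PGCs and 2.77 and 0.28 CPM in soma at 7 hpf. gdf3, the Vg1-related ligand that pairs with Nodal, measured 106 and 83.4 CPM in PGCs and 35.0 and 9.50 CPM in soma (log2 difference 2.09, SE 0.56, adjusted p = 0.0528). For mixl1, sebox and gdf3 both PGC libraries thus lay above both soma libraries, whereas for sox32 and sox17 the groups overlapped. In the group of Wnt pathway genes and ventral repressors, both PGC libraries lay below both soma libraries for 5 of 6 identifiers, where 24.9% of all genes did so. They included 1 of the 2 uncertain identifiers of wnt8a. Also among them was ved (285 and 279 CPM against 422 and 389.9 CPM, log2 difference -0.52, SE 0.22, adjusted p = 0.173). Of the 8 mesoderm genes 4 showed the same arrangement, including tbx6 and tbx16l.

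Between the stages 24 of the 33 were called lower and 2 higher in PGCs, where 6.94% of all genes were called lower and 19.5% higher. In soma 25 were called lower and 3 higher, where the shares of all genes were 9.89% and 23.2%. Some of the 33, such as ndr2 and mespaa, passed the count filter only through 7 hpf, and foxa1 and sox18 only through 24 hpf. For such genes the direction of a call was fixed in advance. Fewer of the 33 were called lower in PGCs without replicate 1 of PGCs at 7 hpf or without replicate 2 of PGCs at 24 hpf. The share of all genes called in those fits is not given here, so the drop cannot be set against that of all genes. Of the 8 mesoderm genes 7 were called lower in each cell type, all but the presomitic T-box gene tbx6 (20.4 and 4.54 CPM in PGCs and 58.3 and 18.3 CPM in soma at 24 hpf). Of the 4 organizer genes 2 were called lower in each cell type. All 6 Nodal pathway genes other than ndr1 were called lower in both. The genes called higher included the endodermal forkhead gene foxa1, with 0 counts in both PGC libraries at 7 hpf and 11.3 and 9.63 CPM at 24 hpf. With the floor of 3 counts put in place of its 0, the pooled ratio was 82.4. The vessel-expressed SoxF gene sox18 was called higher in both cell types and sox7 in soma. sox7 and sox18 together summed to 1.74 and 1.44 CPM in PGCs at 7 hpf and 10.9 and 8.79 CPM at 24 hpf, where sox17 of the same family had fallen. At 24 hpf 0 of the 33 was called by edgeR between PGCs and soma, and 4 had an unadjusted p under 0.05, where 3.02% of all genes did. DESeq2 called 2 higher, a count given here without the share of all genes. mixl1 had 156 counts in PGCs against 0 in soma, without a call (adjusted p = 0.36). With the floor of 3 counts put in place of the 0, the pooled ratio was 43.5, which takes no account of the spread between replicates. The interaction was called by edgeR for 0 of the 33, with 7 at an unadjusted p under 0.05, where 15.1% of all genes were. DESeq2 called 0.

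**Figure D5:**
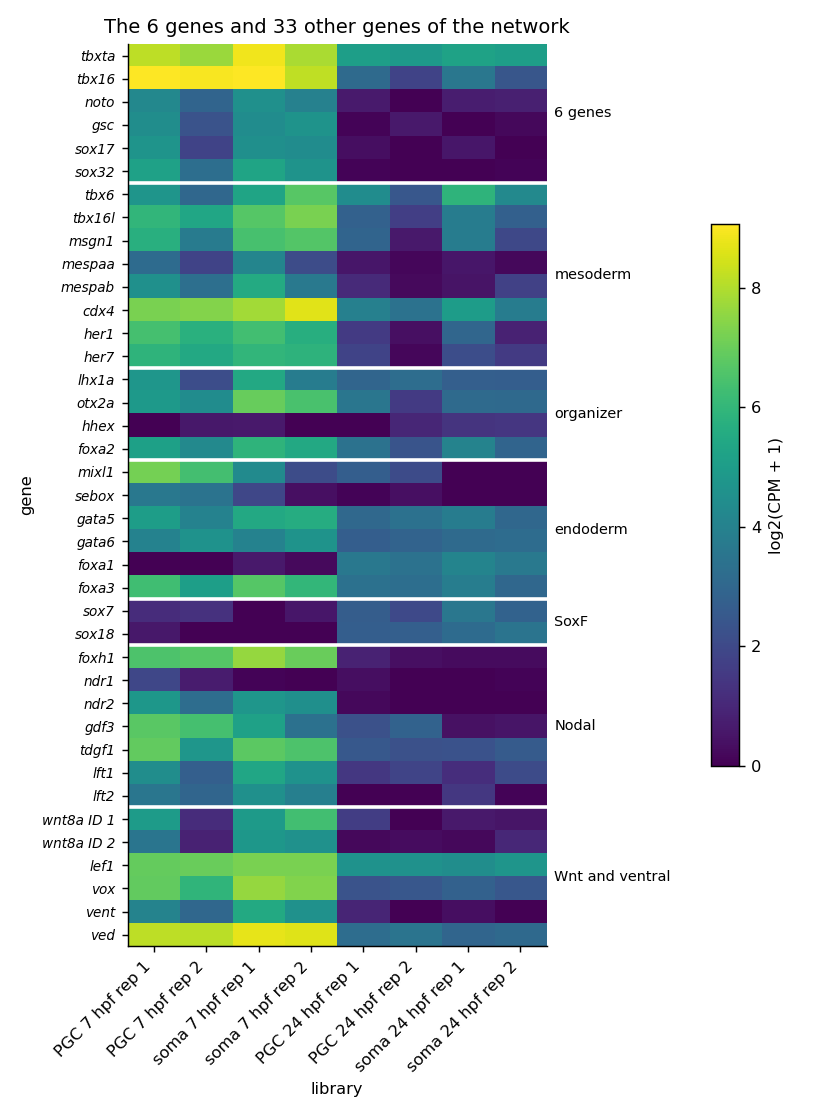
Level of the 6 genes and of 33 identifiers of further network genes in each of the 8 libraries, coloured by log2(CPM + 1) and grouped by role; rows are genes, columns are libraries, and wnt8a is given as its 2 identifiers. Most rows are bright in the 4 libraries at 7 hpf and dark at 24 hpf. Called lower are 24 of 33 in PGCs (6.94% of all genes) and 25 in soma (9.89% of all genes). The genes foxa1, sox7 and sox18 run the other way and mixl1 is brightest in PGCs at 7 hpf. At low levels hhex also runs the other way in soma (0.52 and 0 CPM at 7 hpf, 1.59 and 1.72 CPM at 24 hpf), and its stages overlap in PGCs.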

How the data were processed

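Per the labels and the study's methods, the authors removed adapters with Trim Galore, used STAR for alignment to danRer10 and RSEM for quantification. The deposited expected counts are estimates of reads per gene. The deposited TPM are scaled by length to a common total, of which 1 ribosomal RNA gene took 6.81% to 33.5%, so CPM was used between libraries. The authors' effective lengths are in bases, another deposited table. Use of strand and merging of sequencing lanes are not given in the sources used here.

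Expected counts were rounded and tested with edgeR 4.0.16 under R 4.3.3 (filterByExpr, TMM, quasi-likelihood test, 8 libraries, 4 group means, Benjamini-Hochberg over 19885 genes). The threshold was an adjusted p under 0.05 with a log2 change of at least 1.5. Standard errors are the change over the root of F. Log2 CPM used a prior count of 2. Alternatives were RLE size factors, other filters, a replicate block, no minimum fold, limma 3.58.1 on log2 TPM with pseudocounts of 1 and 0.1, DESeq2 1.42.0, a contrast's own libraries and leaving out each library. The code was tested on simulated data.

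All 6 genes are named whatever their result, with network and marker lists matched by symbol (51 of 56 symbols). The genes and lists were chosen with earlier results of these data known. The symbols tbxtb, eomesa and otx2b are not analysed here, and the 2 identifiers of wnt8a are uncertain. The 92 spike-in rows held 0 counts and were left out.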

Additional observations from a re-analysis of the deposited data

How the results depend on the processing

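The number of the 6 genes called was 0 between PGCs and soma at each stage, 0 in the interaction and 6 between the stages in soma under every alternative run. In PGCs it was 6 between the stages under all alternatives except limma on TMM-scaled log2(TPM + 1), an alternative chosen after seeing the data, and 2 of the left-out libraries, which gave 5 (range 5 to 6 over left-out libraries). In each of these sox17 lost its call (-1.53 on the TMM-scaled TPM scale, adjusted p = 0.0543). The labels do not tie replicate numbers to a shared clutch or day, and same-numbered deviations correlated at -0.01 to 0.20. With a replicate block the counts called were 0, 0, 6, 6 and 0, and only the interaction of sox17 turned, to 0.88 (adjusted p = 0.895).

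Directions turned only for differences that were not called. For the interaction, limma on log2(TPM + 1) gave -0.21 for tbxta, 0.21 for noto and 0.69 for sox17, log2(TPM + 0.1) gave -0.25 for tbxta and 0.90 for sox17, and TMM-scaled log2(TPM + 1) gave 0.29 for noto and 0.71 for sox17. Leaving out a library leaves 1 in its group, assumed to vary like the others. At 7 hpf the PGC to soma difference then ranged from -0.94 to 0.037 for tbxta, -0.054 to 0.84 for tbx16, -3.08 to 0.20 for sox17 and -1.89 to 0.16 for sox32. At 24 hpf it ranged from -1.59 to 0.27 for tbx16, -0.31 to 5.07 for gsc and -4.71 to 4.03 for sox17. The interaction ranged from -0.22 to 0.76 for tbxta, -5.68 to 0.35 for noto and -4.08 to 4.69 for sox17. For the 33 network genes, the share of all genes called without the count filter is not given here. Without the filter 2 of the 33 were called higher and 1 lower between PGCs and soma at 24 hpf. In the interaction 3 were called higher and 1 lower. With the filter 0 were called in either comparison. The causes were not tested. Low counts limit every statement on gsc, sox17 and sox32 at 24 hpf, which rests on 12 counts or fewer per gene over 4 libraries.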
